A study of Mus musculus with 12 samples.

Results

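RNA sequencing libraries of CD22+ eosinophils of the mouse small intestine (SI) were compared with those of α4β7+ eosinophils. The study places these subsets at the old and the young end of 3 that were sequenced, by their approximate time of residence in the tissue. The comparison used 8 of the 12 libraries of the series, 4 of each subset. It covered the 15304 of 36047 genes whose mean normalized count over these 8 libraries was above 10. The remaining 4 libraries, of α4β7− CD22− eosinophils, are given only to place a gene along the span between the ends. All libraries came from wild type female mice of the C57BL/6J strain on standard chow. The mice were young adults by the range that the study gives for all experiments, with no age given per library. Eosinophils of the proximal SI lamina propria from pools of 2 mice per replicate were sorted as live CD45+ CD11b+ SiglecF+ MHCII− Ly6G− cells. The subsets therefore share genotype, tissue, diet, and handling, and differ in the surface integrin α4β7 and the lectin CD22 on which they were sorted. A sorted subset is a pool of cells taken at 1 moment, so fewer cells of a type and less RNA per cell cannot be told apart.

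Eosinophils are granulocytes that leave the bone marrow as mature cells, enter the SI by binding of the integrin α4β7 to the endothelial ligand MAdCAM-1, and stay in the lamina propria. They carry cationic granule proteins, respond to interleukin-5 (IL-5) and to eotaxins through the receptor CCR3, and make cytokines, chemokines, and lipid mediators. Retinoic acid and ligands of the aryl hydrocarbon receptor, both derived from food, are plentiful in the SI. CD22 is an inhibitory lectin best known from B cells and is also found on eosinophils of the SI.

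The transcripts of the sorted proteins separated the subsets, which describes the sort and is no finding. Itgb7, which encodes the β7 chain and lies at chr15:102215995-102231944 of GRCm38, had 2459, 3058, 1838, and 2748 normalized counts in the α4β7+ libraries and 122, 98.7, 118, and 285 in the CD22+ libraries. Cd22, at chr7:30865402-30880342, had 1108, 1364, 987, and 1000.1 normalized counts in the α4β7+ libraries and 14766, 12440.2, 11553, and 14576 in the CD22+ libraries. In neither gene did the groups overlap. Itga4, which encodes the α4 chain that also pairs with β1, went from 37469 ± 3187 to 26876 ± 1173 (mean ± SD, n = 4 here and below) and was below the fold threshold (log2 fold change −0.48, adjusted p = 0.000104).

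The normalized counts of a library summed to between 15783607 and 16915755 in α4β7+ eosinophils and between 14286474 and 14758267 in CD22+ eosinophils (exact permutation test, two-sided, p = 0.0286, the smallest that 4 against 4 libraries allow). No pair of libraries held identical values. Siglecf, the gene of the sorted eosinophil lectin, had 8165, 7209, 7217, and 7543 normalized counts in the α4β7+ libraries and 7789, 7330.4, 6884, and 7356 in the CD22+ libraries, and the groups overlapped (log2 fold change −0.04, adjusted p = 0.767). The summed level of 18 eosinophil markers lay between 134229 and 149320 in α4β7+ and between 90866 and 100278 in CD22+ libraries. By limma 8 of these markers were lower and 1 higher (44.4% and 5.56%, against 6.36% and 5.57% of all genes tested). None of 17 B cell and plasma cell markers tested was called by limma, with 0 at an unadjusted p under 0.05, and their sums overlapped (35243 to 64801 against 34167 to 67690), as did those of T cell and NK cell markers (1814 to 3594 against 1542 to 2354), dendritic cell markers (3614 to 6100 against 3722 to 9382), and enterocyte markers (4766 to 10714 against 2143 to 11675, 0 of 17 called by limma and 1 at an unadjusted p under 0.05). Of these lists 1 of 17 T cell and NK cell markers, Gzma, was lower and 1 of 11 dendritic cell markers, Batf3, higher. The sums of macrophage and monocyte markers overlapped between 4771 and 6442 and between 6217 and 11009 (exact permutation p = 0.0571), and 2 of 14, Cd68 and Lyz2, were higher. Sums overlapped also for stromal, endothelial and red cell markers, between 11674 and 13024 and between 12410 and 14035 (1 of 16, Myh11, higher), and for Paneth and goblet cell markers between 2215 and 6786 and between 1606 and 6619 (1 of 19, Defa30, higher). Mast cell markers were near 0, at 57.6 to 106 and 105.5 to 182.3, and Mcpt2, Mcpt4, Tpsb2, and Cma1 were at 0 in every library. Neutrophil markers fell in sum from between 15586 and 23468 to between 5735 and 6500 (exact permutation p = 0.0286), while 3 of the 7 tested were lower and 3 higher. That sum was mostly Retnlg, a resistin-like gene, which fell from 18828 ± 3509 to 3053 ± 349 normalized counts, while Ly6g, Mpo, and Camp had a mean of at most 10 and S100a8, Elane, and Stfa2l1 were at 0. The part of these other cells in the results below was not tested.

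The subsets were compared with limma after adding 1 to the normalized counts and taking log2. To be called, a gene needed an adjusted p (Benjamini-Hochberg) no larger than 0.05 together with a change of 1.5-fold or more, and adding 1 shrinks the fold change of genes with low counts. Of the 15304 genes, 1826 were called (11.9%). There were 852 genes higher in CD22+ eosinophils (5.57%) and 974 lower (6.36%). For 1669 of the called genes the CD22+ and α4β7+ libraries did not overlap, and over all genes tested the CD22+ libraries lay wholly above in 11% and wholly below in 11.8%. The changes reached 2-fold in 393 genes called higher and 466 called lower, 4-fold in 114 and 124, and 16-fold in 15 and 23. The α4β7− CD22− mean lay between the other means in 1609 of the called genes (88.1%), against 48.7% of all genes tested. When the libraries were rescaled to equal totals, which moved the median of all genes tested from 0.013 to 0.17 on the log2 scale, 1518 genes were higher and 691 lower. Under this rescaling 65 ribosomal protein genes were lower (73 as deposited), 17 sterol synthesis genes higher (17), 14 glycolysis and hypoxia genes lower (17), and 93 zinc finger genes higher (51). Other lists described below also moved by over 1.5 times under it. Genes called higher numbered 8 cytokine receptors (4), 8 inhibitory and paired receptors (5), 2 chemoattractant receptors (1), 2 retinoid genes (1), 2 lineage transcription factors (1), 23 solute carriers (14), 10 DNA replication and cell cycle genes (5), 6 amino acid genes (1), and 3 mitochondrial ribosomal protein genes (1). Genes called lower numbered 5 inhibitory and paired receptors (8), 9 solute carriers (14), 6 oxidase and antioxidant genes (10), 1 iron gene (3), 3 chaperone genes (5), and 3 mitochondrial ribosomal protein genes (5). All values below are as deposited.

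**Figure D1:**
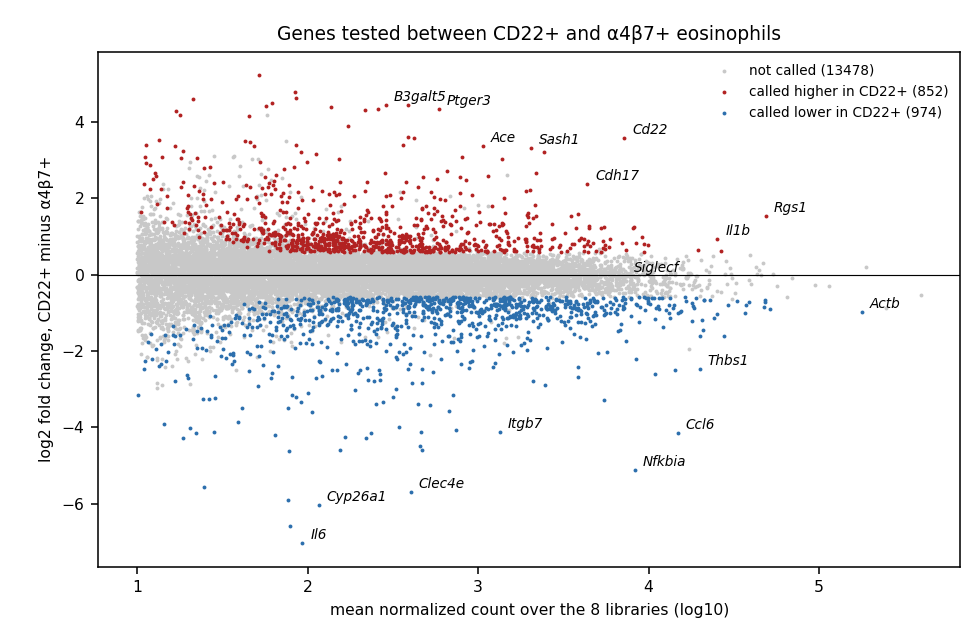
Each point is 1 of the 15304 genes tested, with the mean normalized count over the 8 libraries (log10) on the x axis and the log2 difference, CD22+ minus α4β7+, on the y axis. Red points were called higher (852), blue points lower (974), and labels name some of the genes described in the text.

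The shares called in each direction differed with the level of expression. Among the 2861 genes with a mean of 1000 to 10000 normalized counts, 4.47% were called higher and 10.6% lower. Above 10000, where 201 genes lay, 1.99% were called higher and 24.9% lower. The 2640 genes with a mean of 10 to 30 were called in 2.16% and 1.7%. Protein-coding genes called lower also had shorter transcripts, with a median length of 2690 bases for the longest annotated transcript (2824 without ribosomal protein genes) against 3568 for genes called higher and 3494 for all 14143 tested. The guanine and cytosine content hardly differed, with medians of 50.8%, 49.8%, and 49.1%. The part of transcript length in the calls was not tested.

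Ptger3, Ffar1, Esam, Ace, and Tgfb2 were among the genes with the largest rises. The plot of the largest rises and falls gives their levels in all 12 libraries. Ptger3, which encodes the prostaglandin E2 receptor EP3, had 60.4, 93.4, 40, and 36.9 normalized counts in the α4β7+ libraries and 1213, 1081, 907, and 1269 in the CD22+ libraries (log2 fold change 4.34, standard error 0.25, adjusted p = 1.29e-08). Ffar1, which encodes a receptor for long-chain fatty acids, had 57.9, 67.6, 53.5, and 79.9 normalized counts in the α4β7+ libraries and 860.0, 788, 602, and 871 in the CD22+ libraries (log2 fold change 3.57, standard error 0.17, adjusted p = 2.53e-09). For both genes the lowest CD22+ library lay above the highest α4β7+ library. Esam, an adhesion molecule of endothelial and platelet contacts, had 15.6, 23.1, 23.7, and 19.9 normalized counts in the α4β7+ libraries and 394, 294, 214, and 398 in the CD22+ libraries (log2 fold change 3.89, standard error 0.23, adjusted p = 1.55e-08). For Ace, the peptidase that makes angiotensin II, the counts were 182, 129.5, 197, and 258 in α4β7+ and 2149, 2158, 1556, and 1954 in CD22+ libraries (log2 fold change 3.37, standard error 0.18, adjusted p = 6.34e-09). The α4β7− CD22− libraries had 451, 374, 392, and 510.3 for Ace, so its CD22+ libraries were above both other subsets. Tgfb2, a transforming growth factor, had 45.9, 129, 37.2, and 54.9 normalized counts in the α4β7+ libraries and 919, 544, 698, and 455 in the CD22+ libraries (log2 fold change 3.40, standard error 0.34, adjusted p = 4.15e-06). The groups were again apart, although the CD22+ libraries varied widely.

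The other genes of this set rose without overlap as well. B3galt5, a galactosyltransferase of glycan chains, rose from 26.6 ± 11.6 to 551 ± 81.3 normalized counts, and Cd5l, a secreted scavenger receptor-like protein, from 22.9 ± 9.32 to 201 ± 26.7. Klra17, a Ly49 family receptor, rose from 11.7 ± 3.45 to 264 ± 70.6. Sash1, a scaffold protein of signalling, rose from 377 ± 69.4 to 3721 ± 565, with 2091 in the α4β7− CD22− subset. Nfasc, Dlg2, and Amer2, which are best known from the nervous system, rose from 64.3 ± 87.1 to 715 ± 83.2, from 61.2 ± 22.2 to 716 ± 90.2, and from 23.9 ± 7.25 to 493 ± 93.7. In Nfasc, α4β7+ replicate 1 stood above the others at 194 normalized counts, and the lowest, replicate 2, had 6.03. Myh7b, a myosin heavy chain of muscle, rose from 20 ± 3.76 to 413 ± 36.5. Among the genes with the smallest adjusted p were also Cdh17, a cadherin of the intestinal epithelium, which had 1482, 1598, 1200.2, and 1421 normalized counts in the α4β7+ libraries and 7168, 7871, 7699, and 6586 in the CD22+ libraries (log2 fold change 2.37, standard error 0.09, adjusted p = 3.41e-10), and Dpep2, a dipeptidase that cleaves leukotriene D4, which had 729, 652, 519.7, and 493 normalized counts in the α4β7+ libraries and 3941, 3609, 3624, and 3827 in the CD22+ libraries (log2 fold change 2.66, standard error 0.11, adjusted p = 4.5e-10). Their means in the α4β7− CD22− subset were 5064 and 2733, closer to CD22+ than to α4β7+ eosinophils. Other genes share at least 90% identity with 42.1% of the longest Dpep2 transcript, so its counts are less certain. Rgs1, a regulator of G protein signalling, had the largest rise in absolute level of all called genes, from 24768 ± 3105 to 72608 ± 12683 normalized counts, and already had a mean of 73789.8 in the α4β7− CD22− subset, whose libraries overlapped those of CD22+ eosinophils.

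**Figure D2:**
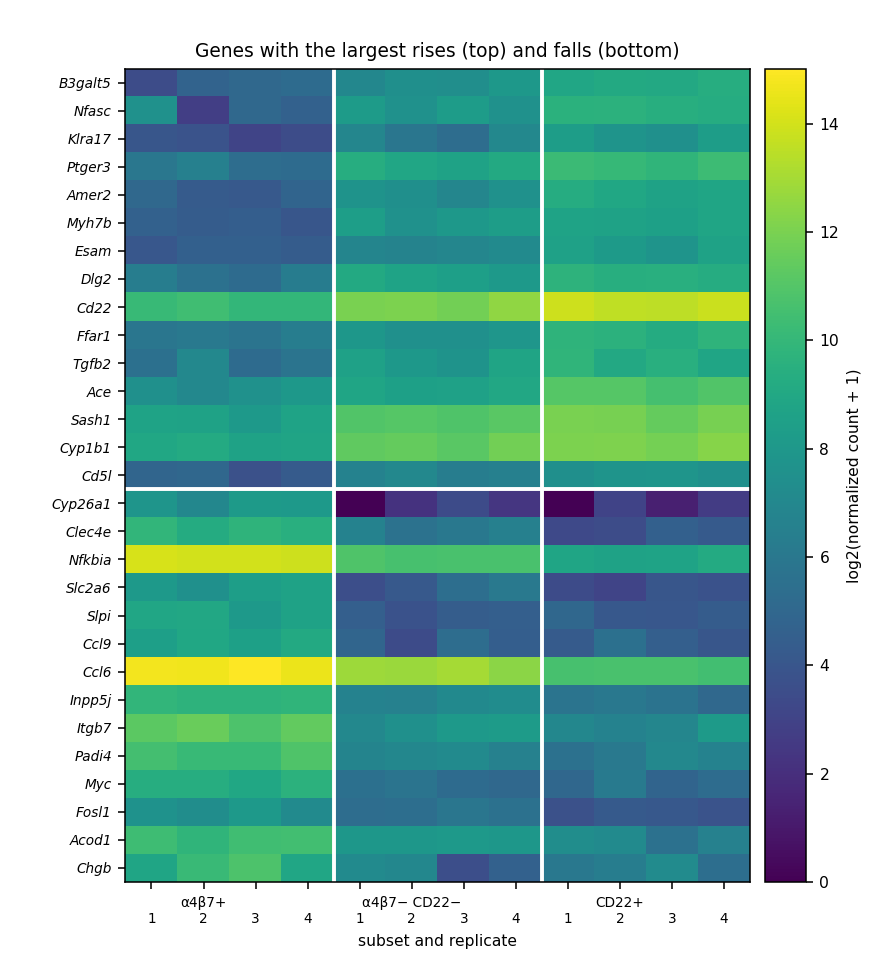
Columns are the 12 libraries, by subset and replicate, and rows are the 15 genes with the largest rise and 14 of the 15 with the largest fall that were called without overlap at a mean of at least 100. The colour is log2(normalized count + 1), and the α4β7− CD22− mean was closer to the CD22+ than to the α4β7+ mean on this scale in 13 of the 15 rises and 13 of the 14 falls. The sort genes Cd22 and Itgb7 are among the genes counted, and their place describes the sort.

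Nfkbia, Clec4e, Slc2a6, Slpi, Padi4, and Inpp5j were among the genes with the largest falls. Nfkbia, which encodes the inhibitor IκBα and is itself induced by NF-κB, had 17428, 16325, 15999, and 14785 normalized counts in the α4β7+ libraries and 447, 409, 418, and 591 in the CD22+ libraries (log2 fold change −5.12, standard error 0.11, adjusted p = 3.38e-13). The groups were far apart, and the adjusted p was the smallest of all genes tested. Clec4e, the mycobacterial glycolipid receptor Mincle, had 956, 609.9, 887, and 715 normalized counts in the α4β7+ libraries and 8.96, 10.4, 23.5, and 18 in the CD22+ libraries (log2 fold change −5.69, standard error 0.30, adjusted p = 6.34e-09). The groups were far apart in this gene too. Slc2a6, a hexose transporter, fell from 300.2 ± 90.6 to 11.4 ± 3.33 normalized counts, Slpi, a secreted protease inhibitor, from 418 ± 107 to 20.8 ± 6.99, and Padi4, which citrullinates histones, from 1392 ± 376 to 85.2 ± 34.9. Inpp5j, an inositol phosphatase, fell from 880.3 ± 66.9 to 50.6 ± 12.6. Acod1, which makes itaconate, fell from 1241 ± 226 to 113 ± 51.7, and Thbs1, the matrix protein thrombospondin 1, fell from 33748 ± 2875 to 6100.1 ± 994. Cd69, an early activation antigen that retains lymphocytes in tissue, had 4737, 4722, 4543, and 3461 normalized counts in the α4β7+ libraries and 638, 595, 504, and 604 in the CD22+ libraries (log2 fold change −2.89, standard error 0.11, adjusted p = 2.86e-10). Gpr65, a proton-sensing receptor, fell from 3654 ± 180.2 to 529 ± 82.8 (log2 fold change −2.80, standard error 0.11, adjusted p = 4.99e-10).

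Chgb, which encodes a secretory granule protein of endocrine cells, also stood among the largest falls, but its α4β7+ libraries were uneven. It had 448, 1142, 1778, and 471 normalized counts in the α4β7+ libraries and 63.7, 80.7, 149.6, and 41.4 in the CD22+ libraries (log2 fold change −3.41, standard error 0.70, adjusted p = 0.00259). In a list of 22 enteroendocrine markers that was written after these values were seen, 4 of 8 tested were lower: Chgb, Chga, Reg4, and Tph1. None was higher, and of all genes tested 6.36% were called lower and 5.57% higher. Chga had 179, 307, 493, and 163 and Reg4 86.3, 198, 256, and 48.6 in the α4β7+ libraries, and in both replicates 2 and 3 were the highest, as for Chgb. The list summed to between 811 and 2770 in α4β7+ and between 197 and 305 in CD22+ libraries. Without Chga, Chgb, and Reg4 the sums overlapped, between 96.9 and 242 and between 56.8 and 179 (exact permutation p = 0.114). No marker of the list was at 0 in every library, and the part of endocrine cells in the fall of Chgb was not tested.

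Promoters were searched for the κB site, the sequence that NF-κB binds, and for other motifs. Promoter sequences of RefSeq on GRCm38, which run from 250 bases before the start of a gene to 50 after it, matched 11207 of the 14143 protein-coding genes tested, and 10 motifs were searched, each on both strands. The κB consensus was present in 9.5% of 705 promoters of genes called lower, in 4.31% of 627 called higher, and in 4.89% of all tested. Among the promoters of called NF-κB genes it was present in 42.9% of 14, and among those of called chemokine genes in 71.4% of 7. It was found in 4.51% of all 32851 reference promoters. The windows below show the site, in capitals, in genes called lower, 5′ to 3′ on the strand of the gene and ending before its start, 1 match for each gene.
Nfkbia (chr12:55492648-55492701): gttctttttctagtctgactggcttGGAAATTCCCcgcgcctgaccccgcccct
Tnfaip3 (chr10:19015411-19015447): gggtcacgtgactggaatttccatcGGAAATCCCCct
Cxcl1 (chr5:90891149-90891208): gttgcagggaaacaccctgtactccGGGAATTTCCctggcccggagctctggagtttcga
Cxcl2 (chr5:90903777-90903836): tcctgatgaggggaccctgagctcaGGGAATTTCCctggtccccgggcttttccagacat
Cxcl3 (chr5:90786003-90786062): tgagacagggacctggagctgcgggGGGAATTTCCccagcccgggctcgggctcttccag
Cxcl10 (chr5:92348958-92349017): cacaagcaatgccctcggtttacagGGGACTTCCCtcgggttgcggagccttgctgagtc
Ccl9 (chr11:83578637-83578696): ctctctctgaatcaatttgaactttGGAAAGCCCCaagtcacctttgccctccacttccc
Il6 (chr5:30013045-30013104): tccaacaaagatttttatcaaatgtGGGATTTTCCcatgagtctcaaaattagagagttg
In Cxcl1, Cxcl2, and Cxcl3, paralogs on chromosome 5, the site had the same letters and lay 71, 97, and 73 bases before the start. A match describes the letters and not binding.

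Of 36 NF-κB pathway genes tested, 14 were lower and 3 higher (38.9% and 8.33%, against 6.36% and 5.57% of all genes tested), with a median log2 fold change of −0.35 against 0.013 for all genes. Tnfaip3, which encodes the ubiquitin-editing inhibitor A20, had 24049, 23636, 23424, and 25600.2 normalized counts in the α4β7+ libraries and 4577, 4629.5, 4057, and 4028 in the CD22+ libraries (log2 fold change −2.49, standard error 0.09, adjusted p = 2.73e-10). Its CD22+ libraries were all below 6185, the mean of the α4β7− CD22− subset. Related genes of the IκB family fell by less, with log2 fold changes of −1.23 for Nfkbiz, −1.07 for Nfkbid, and −1.03 for Nfkbie. The subunit gene Nfkb2 fell from 3236 ± 367 to 1252 ± 109 normalized counts, and Relb, its partner, from 610.3 ± 115 to 352 ± 65. Tnfaip2, a target gene of tumor necrosis factor, moved the other way, with 4907, 5063, 4471, and 4878 normalized counts in the α4β7+ libraries and 12674, 11839, 8879.9, and 12245 in the CD22+ libraries (log2 fold change 1.23, standard error 0.10, adjusted p = 3.1e-07). Map3k8 and Tnip2 were higher too, from 64 ± 20.3 to 110.2 ± 9.75 and from 129 ± 20.8 to 280.3 ± 28.3, but Map3k8 had an adjusted p between 0.0578 and 0.0783 (limma) without any 1 of CD22+ replicates 1, 2, and 3 or α4β7+ replicates 1 and 2.

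Immediate early genes, which are induced within minutes of a stimulus, were lower in 14 of 39 and higher in 2, which is 35.9% and 5.13% against 6.36% and 5.57% of all genes tested (median −0.29). Myc fell from 649 ± 126 to 42.3 ± 20.2 normalized counts, Fosl1, a subunit of AP-1, from 196 ± 57 to 15 ± 2.88, and Dusp2, a phosphatase of MAP kinases, from 807 ± 176 to 76.4 ± 17.2. Another gene covers 62.5% of the Fosl1 transcript on the opposite strand, and the strand setting of the counting was not given in the sources used here. Zfp36, which encodes the mRNA decay factor tristetraprolin, had 34888, 28543, 29059, and 27592 normalized counts in the α4β7+ libraries and 9861, 11558, 9119, and 9229 in the CD22+ libraries (log2 fold change −1.59, standard error 0.09, adjusted p = 1.55e-08). Egr2, a transcription factor of the same response, rose with 363, 303, 179.7, and 188 normalized counts in the α4β7+ libraries and 925, 1143, 616, and 697 in the CD22+ libraries (log2 fold change 1.73, standard error 0.25, adjusted p = 0.000126). No overlap between groups was seen in any of these genes.

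Of 22 chemokine ligands 8 were lower (36.4%, against 6.36% of all genes tested) and none was higher by limma (0 at an unadjusted p under 0.05). Ccl6, a CC chemokine that binds CCR1, lies 9246 bases from Ccl9 on chromosome 11, and both fell. Ccl6 had 27919.9, 26249, 33217, and 24973 normalized counts in the α4β7+ libraries and 1637, 1671, 1656, and 1409 in the CD22+ libraries, with 7171, 7034, 8241, and 5455 in the α4β7− CD22− libraries, so the 3 subsets were apart (log2 fold change −4.13, standard error 0.12, adjusted p = 1.52e-11). Ccl9 had 357, 494, 365, and 568 normalized counts in the α4β7+ libraries and 19.1, 46.1, 22.7, and 15.5 in the CD22+ libraries (log2 fold change −4.15, standard error 0.40, adjusted p = 2.65e-06) and was already at a mean of 25.2 in the α4β7− CD22− subset. Cxcl2, a ligand of the neutrophil receptor CXCR2, had 45117, 38354, 48046, and 35265 normalized counts in the α4β7+ libraries and 15927, 12505, 12879.6, and 13294 in the CD22+ libraries (log2 fold change −1.61, standard error 0.11, adjusted p = 1.18e-07). Cxcl1, a related ligand at a low level, had 83.3, 50.7, 39.7, and 28.9 normalized counts in the α4β7+ libraries and 4.23, 1.71, 1.32, and 20.2 in the CD22+ libraries (log2 fold change −3.23, standard error 0.81, adjusted p = 0.0101), and its call was lost when 0.1 was added in place of 1 (adjusted p = 0.0592). Cxcl3 and Cxcl10 fell from 6467 ± 1546 to 1205 ± 282 and from 376 ± 57.3 to 69.8 ± 22.6 normalized counts. The receptor gene Cxcr2 rose, with 739, 815, 856, and 712 normalized counts in the α4β7+ libraries and 1853, 2050.2, 1449.8, and 1735 in the CD22+ libraries (log2 fold change 1.17, standard error 0.11, adjusted p = 1.38e-06).

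Of 32 cytokine genes 11 were lower, 3 higher, and 18 not called (median −0.49). The shares called lower and higher were 34.4% and 9.38%, against 6.36% and 5.57% of all genes tested. Il6 had 189, 126, 203, and 226 normalized counts in the α4β7+ libraries and 0.673, 0, 1.27, and 0 in the CD22+ libraries. All 4 CD22+ libraries were at or under the floor of 3 reads, so that Il6 was at least 59.6-fold lower. Osm, oncostatin M of the same family, fell from 507 ± 80.9 to 49.4 ± 3.26 normalized counts (log2 fold change −3.32, standard error 0.17, adjusted p = 4.91e-09). Tumor necrosis factor (Tnf) fell from 179 ± 18.4 to 20.9 ± 7, and the ligand LIGHT (Tnfsf14) fell from 393 ± 78.6 to 57.3 ± 14.7. Il4, the type 2 cytokine, had 375, 312, 453, and 332 normalized counts in the α4β7+ libraries and 91.5, 102, 98, and 105 in the CD22+ libraries (log2 fold change −1.87, standard error 0.16, adjusted p = 1.02e-06). Il1b went the other way at a far higher level, with 20476, 17028, 16669, and 15004 normalized counts in the α4β7+ libraries and 37424, 33263, 25449, and 37651 in the CD22+ libraries (log2 fold change 0.94, standard error 0.13, adjusted p = 0.00011), and Il27, a subunit of interleukin-27, rose from 140.1 ± 24.3 to 482 ± 60.1. Il1a, the other interleukin-1 gene, fell from 22802 ± 2536 to 15047 ± 2209. Its change was under 1.5-fold with equal totals (log2 fold change −0.45), with quantile normalization (−0.29), and without CD22+ replicate 3, α4β7+ replicate 1, or α4β7+ replicate 3 (−0.50, −0.55, and −0.57).

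**Figure D3:**
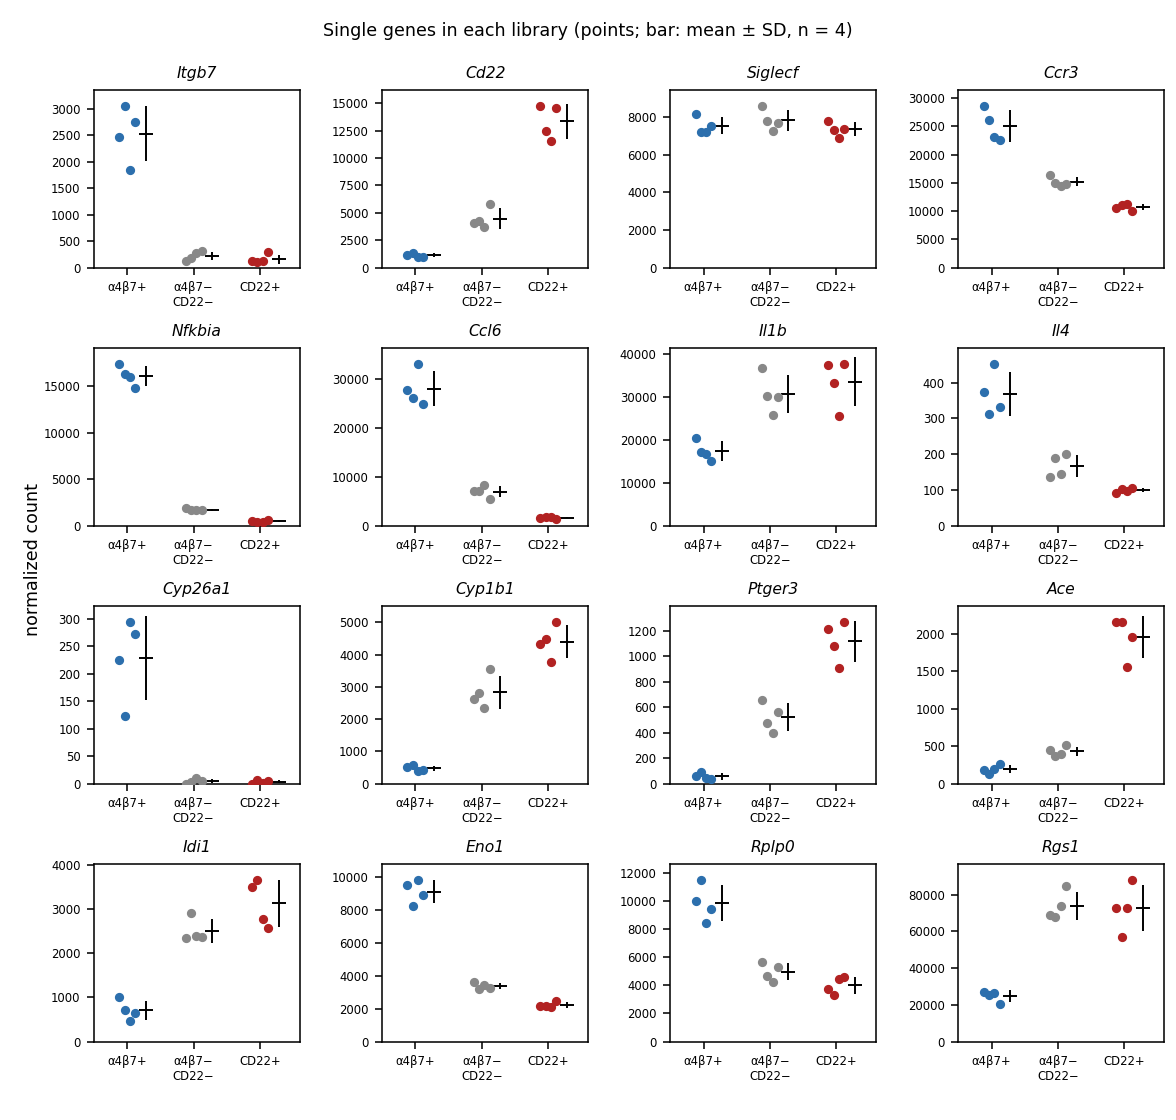
Points are single libraries of the 3 subsets and the bar beside them is the mean ± SD (n = 4), with the normalized count on the y axis starting at 0. Nfkbia, Ccl6, Cyp26a1, Eno1, and Rplp0 were lower and Cyp1b1, Ptger3, Ace, Idi1, Il1b, and Rgs1 higher in CD22+ eosinophils without overlap, whereas the Siglecf libraries overlapped.

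Of 38 chemoattractant receptor genes 14 were lower and 1, Cxcr2, higher (median −0.51), and 23 were not called. The shares called lower and higher were 36.8% and 2.63%, against 6.36% and 5.57% of all genes tested. There were 2 higher without CD22+ replicate 3 or α4β7+ replicate 2. Ccr3, the eotaxin receptor, had 28671, 26208, 23069.5, and 22535 normalized counts in the α4β7+ libraries and 10551, 11150.3, 11289, and 10103 in the CD22+ libraries (log2 fold change −1.22, standard error 0.08, adjusted p = 4.46e-08). The complement receptor genes C5ar1 and C3ar1 fell from 168 ± 54.6 to 15.2 ± 3.55 and from 460.5 ± 60.1 to 69.8 ± 22.1 normalized counts, close to the means of 19 and 57 in the α4β7− CD22− subset. Ccr1l1, a CCR1-like gene, fell from 262 ± 27.3 to 97.1 ± 14.2. Among 45 cytokine receptor genes 9 were lower and 4 higher (20% and 8.89%). Il1rl1, the receptor of interleukin-33, had 434, 323, 435, and 639 normalized counts in the α4β7+ libraries and 38.1, 40, 19, and 98.6 in the CD22+ libraries (log2 fold change −3.40, standard error 0.38, adjusted p = 1.19e-05). Il17ra fell from 985 ± 116 to 221 ± 74.7, and Il5ra, the α chain of the IL-5 receptor, fell less, from 2864 ± 147 to 1793 ± 137, and was not called with equal totals (log2 fold change −0.52). Csf3r, the receptor of granulocyte colony-stimulating factor, rose from 414 ± 97.1 to 1076 ± 171, although other genes match 66.6% of its transcript.

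Adhesion genes included 11 lower and 5 higher of 37, or 29.7% and 13.5% against 6.36% and 5.57% of all genes tested. Besides the sorted Itgb7, a lower gene was Cd34, a sialomucin of progenitors and mature eosinophils (from 772 ± 162 to 187 ± 24 normalized counts). Jaml, a junctional adhesion molecule-like protein that binds the epithelial receptor CAR, had 217, 268, 202, and 227 normalized counts in the α4β7+ libraries and 1379, 1354, 1161, and 1469.7 in the CD22+ libraries (log2 fold change 2.55, standard error 0.12, adjusted p = 1.75e-09). F11r, which encodes JAM-A, rose from 82.8 ± 10.1 to 181 ± 27.1, and Itgax, which encodes CD11c, rose from 20971 ± 1037 to 32230.0 ± 1943. The call of Itgax was near the fold threshold and was lost when the libraries were rescaled to the 75th percentile (log2 fold change 0.58) and without CD22+ replicate 2 (also 0.58).

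Inhibitory and paired receptors included 8 lower and 5 higher of 40, or 20% and 12.5% against 6.36% and 5.57% of all genes tested. Siglecg, a lectin related to CD22, moved opposite to Cd22, with 613, 749.8, 978, and 974 normalized counts in the α4β7+ libraries and 126, 114, 106, and 106 in the CD22+ libraries (log2 fold change −2.84, standard error 0.17, adjusted p = 1.7e-08). Cd33, another member of the Siglec family, rose from 2259 ± 292 to 5211 ± 263 normalized counts. Cd300lb, an activating receptor of the CD300 family, fell from 1495 ± 87.9 to 276 ± 26.3. Pira2 fell from 2152 ± 76.6 to 513 ± 77.1 and Pira6 from 337 ± 38.1 to 40.5 ± 5.72. Other genes match the whole transcript of both, so their counts are uncertain. Sirpb1a, a signal-regulatory protein, rose from 246 ± 51.3 to 952 ± 19.9, and Sirpb1b matches 98.9% of its transcript. Pattern recognition genes were 7 lower and 2 higher of 40 (17.5% and 5%, with 1 higher without CD22+ replicate 1 or 2 or α4β7+ replicate 2 or 3), led by the C-type lectin genes Clec4e, Clec4a2 (from 589 ± 46.3 to 73.2 ± 5.4), and Clec12a (from 1207 ± 116 to 308 ± 65.9), and by Irak3, an inhibitor of Toll-like receptor signalling (from 627 ± 68.4 to 166 ± 39.8).

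Genes of a granule protein list, not all particular to eosinophils, were 8 lower and 2 higher of 14 tested (median −0.82). These shares were 57.1% and 14.3%, against 6.36% and 5.57% of all genes tested. There was 1 higher without any 1 of CD22+ replicates 1, 3, and 4 or α4β7+ replicates 1, 3, and 4. Prg2, which encodes major basic protein, had 309, 365, 407, and 328 normalized counts in the α4β7+ libraries and 96.4, 69.2, 117, and 156 in the CD22+ libraries (log2 fold change −1.73, standard error 0.21, adjusted p = 2.08e-05). Epx, which encodes eosinophil peroxidase, fell from 149.7 ± 23.3 to 68.9 ± 8.67 normalized counts. Ear1, a ribonuclease, fell from 60.4 ± 11.3 to 12.1 ± 5.66, but Ear2 matches its whole transcript. Serpinb1a, an inhibitor of neutrophil serine proteases, fell from 545 ± 55.3 to 128 ± 59.8. Lyz2, which encodes lysozyme, rose from 576 ± 120.3 to 1485 ± 205, and Lyz1 matches 96% of its transcript. Lyz2 is also 1 of the 14 macrophage and monocyte markers, whose sum is given above, and the part of such cells in its rise was not tested. Lineage transcription factors were 5 lower and 1 higher of 30 (16.7% and 3.33%), with 2 higher without CD22+ replicate 2. Ikzf2, which encodes Helios, fell from 1199.6 ± 297 to 360.4 ± 77.7, Lmo4 from 1492 ± 109 to 481 ± 77.3, Gfi1 from 91.3 ± 6.27 to 32.1 ± 13.3, and Cebpb from 10916 ± 539 to 6298 ± 575. Cebpe and Gata1, which direct eosinophil development, were below the fold threshold (log2 fold change −0.54, adjusted p = 0.000261 for Cebpe, −0.53, adjusted p = 0.00681 for Gata1), although Gata1 was called lower without CD22+ replicate 3 or α4β7+ replicate 3 (log2 fold change −0.63 and −0.60). Gata2 was higher, from 399 ± 37.7 to 603 ± 66.1, a call that was lost under 5 alternatives, among them without CD22+ replicate 1, α4β7+ replicate 3, or α4β7+ replicate 4 (log2 fold change 0.52, 0.55, and 0.55).

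Genes of cell survival included 8 lower and 2 higher of 36 (22.2% and 5.56%, against 6.36% and 5.57% of all genes tested), with 5 lower without α4β7+ replicate 3 and 4 with equal totals. Fas, the death receptor, fell from 296 ± 29.9 to 84.2 ± 21 normalized counts, and Bid, which links death receptors to mitochondria, from 359.6 ± 28.4 to 129 ± 6.34. Bcl2, which blocks apoptosis, rose from 499.7 ± 66 to 826 ± 106, and Bcl2l11, which encodes the pro-apoptotic protein BIM, rose from 699 ± 107 to 1216 ± 88.1. Inhibitors and promoters of apoptosis were thus found in both directions, and Pim1 and Birc3, a kinase and an inhibitor linked to survival, fell from 47999 ± 2323 to 29395 ± 3174 and from 14515 ± 1650.3 to 8129 ± 339. The call of Pim1 was lost with quantile normalization and with equal totals (log2 fold change −0.50 and −0.55).

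Retinoid genes were followed because retinoic acid is abundant in the SI. Cyp26a1, the hydroxylase that degrades retinoic acid and is induced by it, had 225, 123, 294, and 272 normalized counts in the α4β7+ libraries and 0, 7, 1.47, and 5.29 in the CD22+ libraries (log2 fold change −6.03, standard error 0.75, adjusted p = 3.14e-05). It was already at 0, 3.63, 9.6, and 4.1 in the α4β7− CD22− libraries. CD22+ replicates 1 and 3 were under the floor of 3 reads. Over all alternatives the log2 fold change of Cyp26a1 lay between −7.11 and −4.11. The Cyp26a1 promoter held a retinoic acid response element of the DR5 type, in which repeats of a short site are separated by 5 bases, and 0.0714% of the promoters tested held one.
Cyp26a1 (chr19:37697751-37697807): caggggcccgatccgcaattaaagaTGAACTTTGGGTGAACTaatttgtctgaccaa
The capitals mark the element, which lay 32 to 16 bases before the start and reads on the opposite strand. Of 29 retinoid genes 5 were lower and 1 higher (17.2% and 3.45%, against 6.36% and 5.57% of all genes tested), and without α4β7+ replicate 2 there were 8 lower. Rarg, a retinoic acid receptor, had 375, 278, 220.5, and 273 normalized counts in the α4β7+ libraries and 67.8, 78.7, 106, and 86.2 in the CD22+ libraries (log2 fold change −1.74, standard error 0.21, adjusted p = 2.65e-05), and Dhrs3 and Dhrs9, which interconvert retinol and retinal, fell from 221 ± 14.2 to 95.3 ± 18.4 and from 155 ± 36 to 49.7 ± 22.8 normalized counts. Rara, the other receptor gene at a high level, had a log2 fold change of −0.55, adjusted p = 0.00307 and did not reach the fold threshold, but was called lower at the 75th percentile and without CD22+ replicate 1, CD22+ replicate 2, or α4β7+ replicate 2 (down to −0.65). Fabp5, a carrier of fatty acids and retinoic acid, rose from 35.2 ± 16.2 to 113 ± 59.4.

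Of 10 target genes of the aryl hydrocarbon receptor 2 were higher and 2 lower, 20% each against 5.57% and 6.36% of all genes tested. Without CD22+ replicate 3 or α4β7+ replicate 1 there was 1 lower, and with equal totals or quantile normalization there were 3 higher and 1 lower. Cyp1b1, a cytochrome P450 induced by the receptor, had 501, 581, 403, and 428 normalized counts in the α4β7+ libraries and 4338, 4502, 3774, and 5021 in the CD22+ libraries (log2 fold change 3.21, standard error 0.14, adjusted p = 7.4e-10), and Ahrr, its repressor, had 1229.7, 1068, 1043, and 1151 normalized counts in the α4β7+ libraries and 3330.3, 3483, 2839, and 3267 in the CD22+ libraries (log2 fold change 1.52, standard error 0.10, adjusted p = 3.54e-08). Nqo1, a quinone reductase that also responds to NRF2, fell from 837 ± 69.1 to 284 ± 38.4 normalized counts. Ahr itself had 19103, 16800.1, 17232, and 17243 normalized counts in the α4β7+ libraries and 18786, 19433, 16749, and 16638 in the CD22+ libraries, and the groups overlapped (log2 fold change 0.02, adjusted p = 0.857).

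Of 33 lipid mediator genes 5 were higher, 6 lower, and 22 not called. The shares called were 15.2% higher and 18.2% lower, against 5.57% and 6.36% of all genes tested. Besides Ptger3 and Dpep2, Ggt5, which converts leukotriene C4 to D4, rose from 404 ± 33.1 to 989.8 ± 65.5 normalized counts, and Ptgs1, the constitutive cyclooxygenase, from 938 ± 101 to 1788 ± 339. Ptgs2, the inducible cyclooxygenase, had 8827, 5785, 7355, and 4895 normalized counts in the α4β7+ libraries and 1066, 1039, 806, and 1195 in the CD22+ libraries (log2 fold change −2.69, standard error 0.17, adjusted p = 4.64e-08). Alox15, the 15-lipoxygenase of eosinophils, had 33896, 31348, 29994, and 26988 normalized counts in the α4β7+ libraries and 11428, 11854, 9917, and 11109 in the CD22+ libraries (log2 fold change −1.46, standard error 0.08, adjusted p = 7.38e-09). The cyclooxygenase genes thus moved in opposite directions, without overlap in either. Ptgir, the prostacyclin receptor gene, was low, with 31.6, 41.3, 45.8, and 36.6 normalized counts in the α4β7+ libraries and 1.01, 2.64, 3.84, and 0 in the CD22+ libraries (log2 fold change −4.02, standard error 0.61, adjusted p = 0.00023). Its CD22+ values lay around the floor of 3 reads, and its log2 fold change was between −5.2 and −2.04 over all alternatives.

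Peptidase and matrix genes were 7 lower and 2 higher of 37, or 18.9% and 5.41% against 6.36% and 5.57% of all genes tested. Plaur, the urokinase receptor gene, rose from 6056 ± 671 to 10850.0 ± 1857 normalized counts, while Lgals3 fell from 2555 ± 276 to 638 ± 155 and Mmp9 from 20009 ± 1684 to 9947 ± 910.1. Among 22 iron genes 4 were higher and 3 lower (18.2% and 13.6%), and without CD22+ replicate 4 or α4β7+ replicate 3 there were 2 and 2, and without CD22+ replicate 1 there were 2 and 3. Tfrc, the transferrin receptor, rose from 1356 ± 147 to 2471 ± 268, Hmox1, heme oxygenase 1, from 40.8 ± 10.3 to 87.2 ± 6.33, and Slc11a1, the phagosomal metal exporter NRAMP1, fell from 924 ± 112 to 163 ± 60.2 (log2 fold change −2.56, standard error 0.21, adjusted p = 5.82e-07).

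Sterol synthesis had the largest share of members higher of the 38 lists plotted, 17 of 21 (81%, against 5.57% of all genes tested) with none lower by limma (0 at an unadjusted p under 0.05, median 1.15). Idi1, which isomerizes the isoprenoid precursor, had 1001, 704, 468, and 656 normalized counts in the α4β7+ libraries and 3499, 3654, 2771, and 2572 in the CD22+ libraries (log2 fold change 2.18, standard error 0.18, adjusted p = 6.61e-07). Hmgcs1, which makes HMG-CoA, had 1646, 1110.2, 866, and 913 normalized counts in the α4β7+ libraries and 3206, 3264, 2306, and 2535 in the CD22+ libraries (log2 fold change 1.35, standard error 0.22, adjusted p = 0.000369). Hsd17b7, Msmo1, and Fdps, enzymes of later steps, rose in normalized counts from 121 ± 58.4 to 458 ± 134, from 972 ± 305 to 3345 ± 316, and from 545 ± 153 to 1855 ± 115. Of 27 genes of sterol uptake, efflux, and control 5 were higher and 2 lower (18.5% and 7.41%). Insig1 and Srebf2, a sensor and the transcription factor of the pathway, rose from 721 ± 255 to 2157 ± 475 and from 6842 ± 1187 to 11943 ± 1304. Abca1, which exports cholesterol, and Mylip, a ubiquitin ligase of sterol control, fell from 209 ± 19.9 to 94.6 ± 36.8 and from 1133 ± 86.4 to 516 ± 97.4. Of 43 fatty acid genes 7 were higher and 2 lower (16.3% and 4.65%), among them Scd2, a desaturase (from 358 ± 96.2 to 1210.4 ± 119), and Fasn, fatty acid synthase (from 686 ± 285 to 1619.7 ± 185).

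The CCAAT letters of the NF-Y box, a site that commonly lies beside sterol regulatory elements, were present in 91.7% of 12 promoters of called sterol synthesis genes, against 39% of all promoters tested. They were also present in 59.6% of 52 promoters of called zinc finger genes. Of the sterol synthesis genes that were not called, Ebp, Ggps1, and Sc5d also held the CCAAT letters before the start, and Acat2 did not. The letters were thus not limited to called members. The sterol regulatory element itself, searched as TCACNCCAC, was present in 8.33% of these 12 against 0.999% of all. That was the Hmgcs1 promoter, shown with the element in capitals.
Hmgcs1 (chr13:119690189-119690247): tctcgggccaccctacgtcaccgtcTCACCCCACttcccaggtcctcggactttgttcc
The element lay 137 to 129 bases before the start. The hypoxia response core ACGTG was present in 64.7% of 17 promoters of called glycolysis and hypoxia genes and in 24.4% of all tested. It was also present in 50% of 12 promoters of called immediate early genes and in 42.9% of 7 of called chemokine genes. The AP-1 site TGANTCA was present in 7.8% of promoters of genes called lower, 5.42% of those called higher, and 5.75% of all. Its share was 14.1% in 85 promoters of genes called lower at least 4-fold, 42.9% in 7 of called chemokine genes, 21.4% in 14 of called NF-κB genes, and 0% in 12 of called immediate early genes. The other 4 motifs, the E-box CACGTG, the cAMP response element TGACGTCA, the xenobiotic response element TNGCGTG, and the interferon response core, were present in 9.65%, 2.7%, 7.23%, and 4.11% of promoters of genes called lower and in 9.4%, 3.02%, 7.56%, and 3.41% of all. In the same order the shares were 9.62%, 11.5%, 15.4%, and 11.5% in 52 promoters of called ribosomal protein genes. They were 25%, 8.33%, 0%, and 0% in the 12 of called immediate early genes. The hypoxia core is contained in the E-box.

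**Figure D4:**
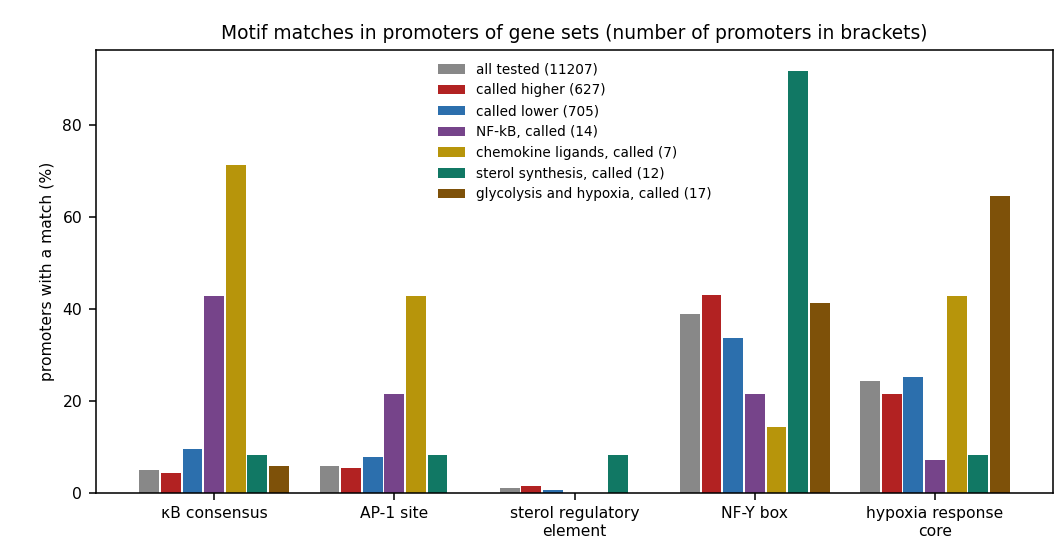
Bars give the percentage of promoters with at least 1 match on either strand for 5 motifs (x axis), for all genes tested, the genes called higher or lower, and the called members of 4 gene lists, without the zinc finger and immediate early genes given in the text. The κB consensus was present in 71.4% of called chemokine and 42.9% of called NF-κB promoters, the NF-Y box in 91.7% of called sterol synthesis promoters, and the hypoxia core in 64.7% of called glycolysis and hypoxia promoters.

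Of 41 glycolysis and hypoxia genes 17 were lower (41.5%, against 6.36% of all genes tested) and none higher by limma (2 at an unadjusted p under 0.05, median −0.63). Eno1, an enolase, had 9510.2, 8245, 9846, and 8909.7 normalized counts in the α4β7+ libraries and 2149, 2183, 2135, and 2474 in the CD22+ libraries (log2 fold change −2.03, standard error 0.07, adjusted p = 2.86e-10), although Eno1b matches 85.6% of its transcript. Ddit4, a hypoxia-induced inhibitor of mTORC1, fell from 346 ± 50.7 to 61.9 ± 17.8 normalized counts, Egln3, an oxygen-sensing hydroxylase, from 83.6 ± 14.7 to 20.7 ± 12, and Gapdh from 14242 ± 1344 to 7787 ± 611. Other annotated genes match 36.5% of the Gapdh transcript on the same strand and 37.3% on the opposite strand. Respiratory chain subunits were lower in 5 of 77, which is 6.49% against 6.36% of all genes, and higher in none by limma. At an unadjusted p under 0.05 (limma) 39 were lower and 1 higher, and 70 of the 77 had a negative log2 fold change (median −0.32). Ndufb7, a subunit of complex I, fell from 858 ± 135 to 532 ± 111 and lost its call with equal totals and without CD22+ replicate 2 (log2 fold change −0.54 and −0.55). With equal totals none of the 77 was lower and 1 was higher, without CD22+ replicate 2 there were 2 lower, and without CD22+ replicate 4 there were 8. Of 13 mitochondrially encoded genes 3 were lower (23.1%), 1 without CD22+ replicate 1, 7 without CD22+ replicate 3, and 5 without CD22+ replicate 4, α4β7+ replicate 1, or α4β7+ replicate 2. Their sum went from between 143268 and 170342 to between 78274 and 129806 normalized counts (exact permutation p = 0.0286). As a percentage of all normalized counts of a library the sums overlapped, at 0.847 to 1.08% against 0.531 to 0.909%. With equal totals 1 of the 13 was lower, and with quantile normalization none was. Among 39 oxidase and antioxidant genes 10 were lower and 1 higher (25.6% and 2.56%). Cybb, the catalytic subunit of the phagocyte NADPH oxidase, had 36317, 31956, 32724, and 34178 normalized counts in the α4β7+ libraries and 16469.7, 17701, 16870.4, and 15009.6 in the CD22+ libraries (log2 fold change −1.03, standard error 0.07, adjusted p = 3.59e-08), and Gpx1, a glutathione peroxidase, fell from 6288 ± 314 to 2726 ± 360.2. Ncf1, another oxidase subunit, fell from 60149 ± 1078 to 36609 ± 1902, a change that did not reach the fold threshold with equal totals or quantile normalization. Amino acid transport and sensing genes changed in 7.84% of 51, below the share of all genes, with 3 lower and 1 higher (2 higher without α4β7+ replicate 1, none without α4β7+ replicate 2).

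**Figure D5:**
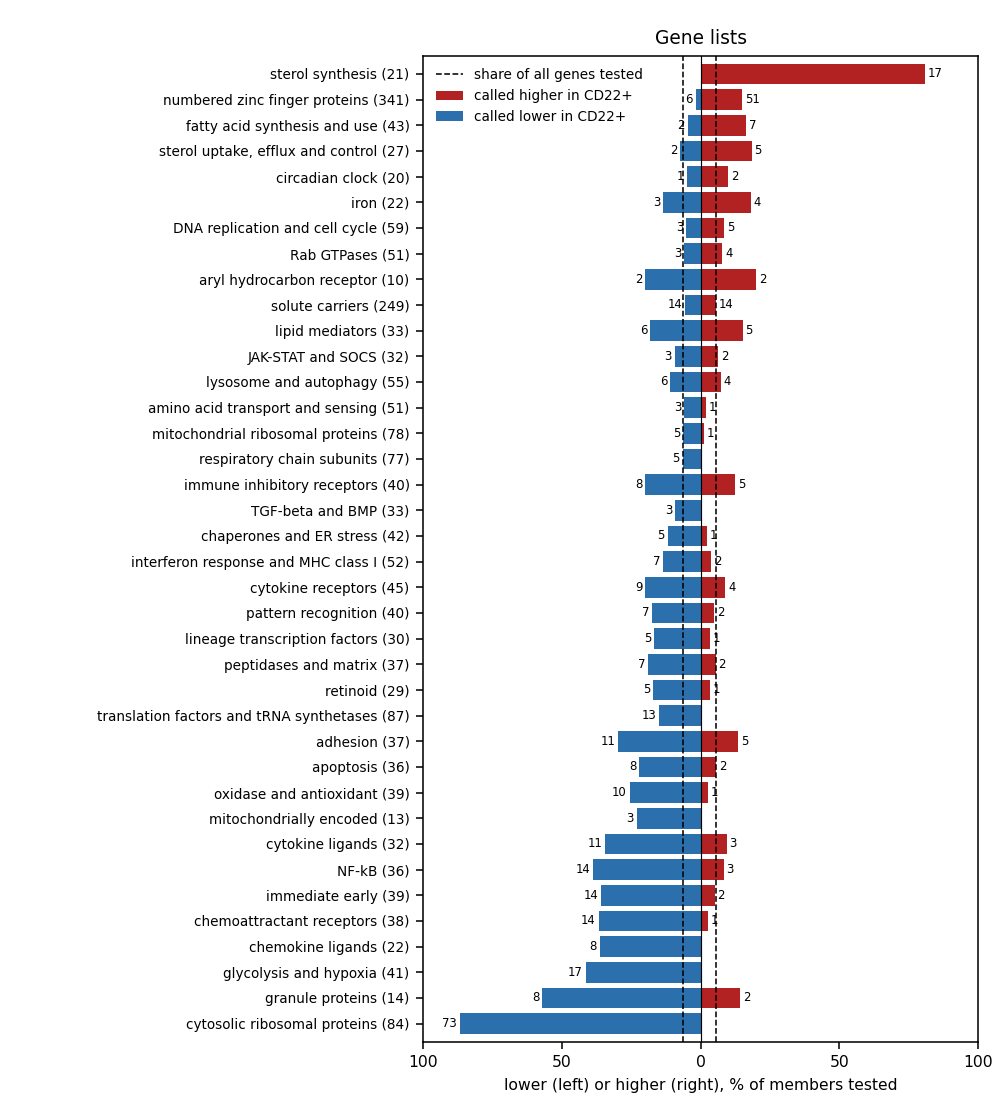
Bars give the share of the tested members of each list (number in brackets) called lower (left, blue) or higher (right, red) in CD22+ eosinophils, with the number called beside each bar and dashed lines at the shares of all genes tested, 6.36% and 5.57%. Ribosomal protein genes (73 lower) and sterol synthesis genes (17 higher) are the extremes.

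Ribosomal protein genes were lower in 73 of 84 (86.9%, against 6.36% of all genes tested) and higher in none by limma (0 at an unadjusted p under 0.05), with a median log2 fold change of −0.90. Rps19 had 3169, 4273, 2228, and 2741 normalized counts in the α4β7+ libraries and 748, 582, 862, and 938 in the CD22+ libraries (log2 fold change −1.97, standard error 0.18, adjusted p = 1.61e-06), and Rplp0 had 9974, 11497, 8432, and 9394 normalized counts in the α4β7+ libraries and 3710.1, 3311, 4429.5, and 4588 in the CD22+ libraries (log2 fold change −1.30, standard error 0.12, adjusted p = 1.97e-06). The groups did not overlap in either gene. Other annotated genes match 70.3% of the Rplp0 transcript on the same strand and 67.8% on the opposite strand. Of 87 translation factors and tRNA synthetases 13 were lower and none higher by limma (41 lower and 6 higher at an unadjusted p under 0.05, median −0.21). The share lower was 14.9%, against 6.36% of all genes tested. There were 3 higher with equal totals and 1 without CD22+ replicate 1. Members called were, for example, Eef1b2, an elongation factor (from 2789 ± 284 to 1481 ± 262 normalized counts), and Dars, an aspartyl-tRNA synthetase (from 876 ± 109 to 476 ± 59.3). Mitochondrial ribosomal protein genes were lower in 5 and higher in 1 of 78 (7.69%, against 11.9% of all genes). Numbered zinc finger protein genes, which encode DNA-binding proteins, were higher in 51 of 341 and lower in 6 (15% and 1.76%, against 5.57% and 6.36% of all genes tested, median 0.24). Zfp709 rose from 143 ± 23.6 to 432 ± 50.8 and Zfp763 from 21.9 ± 6.69 to 81.9 ± 18.8, while Zfp971 fell from 953 ± 272 to 281 ± 52.9, although Zfp966 and other genes match 99.7% of its transcript.

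Of 52 interferon response and MHC class I genes 7 were lower and 2 higher, 17.3% in all against 11.9% of all genes tested. There were 4 lower with quantile normalization or equal totals, 5 higher without α4β7+ replicate 4 or with equal totals, and 1 higher without CD22+ replicate 1 or 2 or α4β7+ replicate 2 or 3. Stat2, which carries the type I interferon signal, had 896, 841, 1021, and 1182 normalized counts in the α4β7+ libraries and 2618, 3028, 2844, and 2982 in the CD22+ libraries (log2 fold change 1.55, standard error 0.11, adjusted p = 9.93e-08), whereas H2-Q7, H2-K1, and H2-D1 fell from 6600.2 ± 1658 to 2047 ± 559, from 20259.6 ± 1819.8 to 10353 ± 1435, and from 23803 ± 1386 to 13010.4 ± 1063 normalized counts. These class I genes share most of their transcripts with each other (for example 75.1% of H2-K1), so reads may have been split between them. The call of H2-D1 was lost with quantile normalization (log2 fold change −0.55). JAK-STAT and SOCS genes were 3 lower and 2 higher of 32 (15.6%). The counts were 2 and 1 without CD22+ replicate 2, CD22+ replicate 4, or α4β7+ replicate 3, 3 and 1 without α4β7+ replicate 2, and 1 and 5 with equal totals. Cish, an inhibitor induced by IL-5, fell from 1421 ± 180.4 to 739 ± 134. Of 33 TGF-β and BMP genes 3 were lower and none higher by limma (7 lower and 4 higher at an unadjusted p under 0.05). The share lower was 9.09%, against 6.36% of all genes tested. The 3 were Smad3 (from 858 ± 168 to 349.6 ± 74.4), Tgif1 (from 418 ± 78.1 to 157 ± 38.2), and Id2 (from 1405 ± 101 to 924 ± 61.2). There was 1 higher without CD22+ replicate 2 or without α4β7+ replicate 1, 3, or 4. Tgfb2, given above as higher, was not a member of this list. Id2 changed by less than 1.5-fold under 5 alternatives, among them without CD22+ replicate 2, CD22+ replicate 3, or α4β7+ replicate 2 (log2 fold change −0.58, −0.57, and −0.56). Of 20 clock genes (15% called) 2 were higher and 1, Rora, lower, and Rora lost its call without CD22+ replicate 1 or 2, without any 1 α4β7+ library, and under 4 other alternatives (log2 fold change −1.23 to −0.61 over all alternatives). Nr1d2, which encodes REV-ERBβ, rose from 112 ± 21.6 to 328 ± 36.7 and Clock from 344 ± 45.6 to 597 ± 11.9, and other genes match 30.4% of the Nr1d2 transcript.

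DNA replication and cell cycle genes were 5 higher and 3 lower of 59 (13.6% called, against 11.9% of all genes tested). There were 8 higher without α4β7+ replicate 2. Mcm2, a subunit of the replicative helicase, rose from 178 ± 83.6 to 339.6 ± 30.5 normalized counts. Cdkn1a, the cell cycle inhibitor p21, fell from 604 ± 75.1 to 351 ± 68.7. Lysosome and autophagy genes were 6 lower and 4 higher of 55 (18.2%, against 11.9% of all genes tested). Ctse and Ctsd, which encode cathepsins, fell from 193 ± 23.7 to 44.7 ± 26.1 and from 2914 ± 339 to 1027 ± 112, although Gm49369 matches 38% of the Ctsd transcript. By contrast Cd68, a lysosomal protein that also stands in the list of macrophage and monocyte markers, rose from 335 ± 63.8 to 753 ± 47.4, and the part of such cells in this rise was not tested. Chaperone and endoplasmic reticulum stress genes were 5 lower and 1 higher of 42 (14.3%, against 11.9% of all genes tested). None was higher without CD22+ replicate 1 or 2 or α4β7+ replicate 3. Hspa5, which encodes BiP, had 15668, 13793, 15706, and 15487 normalized counts in the α4β7+ libraries and 6359, 7122, 6700.4, and 6694 in the CD22+ libraries (log2 fold change −1.17, standard error 0.06, adjusted p = 5.84e-09). Among 249 solute carriers 14 were higher and 14 lower, 5.62% each against 5.57% and 6.36% of all genes. Slc23a2, a vitamin C transporter, rose from 290.3 ± 43 to 1281 ± 196 (log2 fold change 2.14, standard error 0.12, adjusted p = 1.54e-08), Slc9c1, a sodium/proton exchanger best known from sperm, rose from 11.7 ± 4.29 to 93.9 ± 8.88, and Slc29a2, a nucleoside transporter, fell from 142 ± 36.9 to 12.1 ± 4.8. Rab GTPase genes were 4 higher and 3 lower of 51 (13.7%, against 11.9% of all genes tested). Rab6b, a Golgi trafficking protein (from 80.7 ± 10.2 to 222 ± 59), and Rab3d, which marks secretory granules (from 450.4 ± 49.6 to 185 ± 17.7), moved in opposite directions.

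Actb, Actg1, and Tmsb4x, genes of the cytoskeleton, were among those with the largest fall in absolute level. Actb, β-actin, had 254411, 245982, 210527, and 230323 normalized counts in the α4β7+ libraries and 120521, 125735, 114409, and 119292 in the CD22+ libraries (log2 fold change −0.97, standard error 0.07, adjusted p = 1.42e-07), and Actg1, γ-actin, fell from 49061 ± 3420.0 to 24562 ± 1488 normalized counts. Another annotated gene shares 57.8% of the Actg1 transcript, and 97.6% of the longest Actb transcript matches another annotated gene. Tmsb4x, which sequesters actin, fell from 59814 ± 8381 to 37293 ± 3372, a call that was lost with quantile normalization and with equal totals (log2 fold change −0.45 and −0.52). Under quantile normalization the log2 fold change of Actb was −0.33 and did not pass either threshold (adjusted p = 0.158). Ccnb1ip1 fell from 67260.2 ± 9066 to 36483 ± 9167 (log2 fold change −0.91, standard error 0.15, adjusted p = 0.000525). The RNA component of RNase P, Rpph1, is annotated on the same strand over its 5′ end (chr14:50807449-50807767), was not among the genes of the table, and its part in this count was not tested.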

How the data were processed

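RNA of sorted SI eosinophils was sequenced, 4 libraries of each of 3 subsets. Per the labels and the submitters' processing notes, reads were trimmed with Trimmomatic 0.39, pseudoaligned with kallisto 0.46.1 to GRCm38 (mm10), and normalized with DESeq2 1.38.2. The deposited values are these normalized counts, a signal on a common scale made by the authors, which do not give back whole reads, and count models were not run. Of 36047 identifiers 35968 matched GENCODE M21. Values were log2-transformed after adding 1 and tested with limma 3.58.1 in R 4.3.3 (trended prior, all 12 libraries, Benjamini-Hochberg). The estimated depth was 13846314 to 17362667 reads per library, and the floor of 3 reads was 2.55 to 3.48 normalized counts, for counting error only. The study describes each library as a biological replicate of 2 pooled mice. The labels do not say whether same-numbered libraries of different subsets share mice, and p-values measure the spread between these samples. Transcript overlap was computed with BLAST 2.17.0 (at least 90% identity over 50 bases). Named genes were the sort genes, the 15 largest rises and falls and the 10 smallest adjusted p and largest differences at a mean of at least 100 (called, no overlap, no predicted gene models), and the 4 largest called changes of each list at a mean of at least 30. Others, including Siglecf, Il1b, Il4, Cxcr2, Hmgcs1, Cybb, Itgax, Bcl2, Gata2, and Ahr, were chosen after their values were seen. Some genes that the rule names are not reported here. The subsets, lists, and tests were chosen with earlier results of these data known. Alternatives were other minimum counts, pseudocounts, scalings, sample sets, no trend, a replicate block, and leaving out each library.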

Additional observations from a re-analysis of the deposited data

Results flagged for a closer look

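In 444 groups of 4 libraries (222 genes in both subsets), 20 values stood apart from the other 3 by Dixon's test on the log2 scale. Chance alone marks about 1 in 20 groups. Values are normalized counts. In α4β7+ eosinophils, Ncf1 had 61757 in replicate 1, above 59501 to 59767 in the others, Osm had 628 in replicate 1, above 458 to 477 in the others, and Rpl35 had 2324 in replicate 2, above 1796 to 1862 in the others. In α4β7+ eosinophils, Birc3 had 12062 in replicate 2, below 15109 to 15636 in the others, Cd69 had 3461 in replicate 4, below 4543 to 4737 in the others, and Hspa5 had 13793 in replicate 2, below 15487 to 15706 in the others. Irak3 had 525 in replicate 2, below 658 to 666 in the others, Lgals3 had 2145 in replicate 4, below 2653 to 2743 in the others, and Pim1 had 44531 in replicate 2, below 48841 to 49379 in the others. Sash1 had 274 in replicate 3, below 399 to 421 in the others. In CD22+ eosinophils, Csf3r had 1331 in replicate 1, above 970 to 1021 in the others, Eno1 had 2474 in replicate 4, above 2135 to 2183 in the others, and H2-K1 had 12498 in replicate 3, above 9481 to 9764 in the others. Smad3 had 460 in replicate 3, above 300 to 320 in the others. In CD22+ eosinophils, Ccl6 had 1409 in replicate 4, below 1637 to 1671 in the others, Cd34 had 151 in replicate 3, below 194 to 201 in the others, and Ffar2 had 3675 in replicate 3, below 3838 to 3855 in the others. Pira2 had 399 in replicate 4, below 537 to 564 in the others, Prim1 had 52.6 in replicate 2, below 79.9 to 83.7 in the others, and Sash1 had 2885 in replicate 3, below 3930 to 4133 in the others. CD22+ replicate 3 and α4β7+ replicate 2 each held 5 of the 20 values.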

How the results depend on the processing

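The 1826 calls moved by less than 1.5 times under all other minimum counts, pseudocounts, scalings, and sample sets tried, and no called gene changed sign. An adjusted p alone gave 3214 genes, 1525 higher and 1689 lower. Rescaling to equal totals gave 1518 higher, as in the text, and sharing 1543 genes with the 1826. Leaving out each library in turn gave between 1653 and 1831 calls, with 721 to 852 higher and 907 to 1010 lower. Same-numbered libraries were not treated as paired. The labels give no link between them, and the correlations of their deviations were 0.177, 0.0638, −0.0583, and −0.0569, with 2 of 4 numbers correlating best with their own. With a replicate block 1842 genes were called (849 higher and 993 lower), 1764 of them shared. Of 216 called genes followed under 20 alternatives, 190 were called in all and 26 lost the call in at least 1. Values that were not called changed sign for Ahr (−0.012 at the 75th percentile, between −0.017 and 0.063 with 1 library left out, but 0.182 with equal totals and 0.374 with quantile normalization) and Siglecf (0.121 with quantile normalization and with equal totals, between −0.066 and 0.002 with 1 library left out), all on the log2 scale. The cause was not tested. The 4 libraries of a subset and the floor of 3 reads limit genes at low levels, and a fold change of genes near the floor depends on the added 1.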

Other observations

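Several genes outside the lists changed by much, and all values here were chosen after they were seen. Notch4, a Notch receptor best known from endothelium, had 252, 220.4, 472, and 325 normalized counts in the α4β7+ libraries and 2514, 2702, 2254, and 2371 in the CD22+ libraries (log2 fold change 3.01, standard error 0.19, adjusted p = 3.27e-08). Gsdme, a pore-forming gasdermin, rose from 175 ± 35.5 to 1145 ± 217 normalized counts, Fndc5, the precursor of irisin, from 327 ± 54.5 to 1945 ± 243, and Prdm1, which encodes the repressor Blimp-1, from 216 ± 23.3 to 893 ± 159. Aqp9, a channel for water and glycerol, had 1395, 1169, 1298, and 1256 normalized counts in the α4β7+ libraries and 139, 148, 159, and 125 in the CD22+ libraries (log2 fold change −3.16, standard error 0.13, adjusted p = 6.06e-10). Capg, which caps actin filaments, fell from 572 ± 63.6 to 62 ± 16.3. In none of these 6 genes did the CD22+ and α4β7+ libraries overlap.

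Both sort genes lie beside a gene that was called in the same direction. Ffar1 lies 3838 bases from Cd22 on the same strand, and their log2 fold changes were 3.57 and 3.58. On its other side Mag, a myelin glycoprotein gene, had means of 406 and 392 normalized counts, while Ffar2, a receptor of short-chain fatty acids within 50000 bases, rose from 2233 ± 123 to 3803 ± 85.6. Rarg lies 2994 bases from Itgb7 on the same strand and fell with it (log2 fold changes −1.74 and −4.12), whereas Zfp740, on the other side, had means of 924 and 868. Over the genome, 9692 pairs of neighbouring genes lay within 50000 bases, and both were called higher in 0.764% and both lower in 0.836%. These pairs held 134 of the 804 protein-coding genes called higher and 155 of the 895 called lower, so such neighbours were not rare among called genes. All 4 CD22+ libraries were at or under the floor of 3 reads for Cd300ld3, a CD300 family receptor gene, which was at least 50.3-fold lower, and all 4 α4β7+ libraries for Drd2, a dopamine receptor gene, which was at least 9.52-fold higher.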
